A study of Mus musculus with 4 samples.

Results

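The secreted Wnt antagonists are proteins that leave the cell and hold Wnt signalling back from outside it. The group was 10 genes chosen by name, of 28034 gene names on the array: Dkk1, Dkk2, Dkk3, Dkk4, Sfrp1, Sfrp2, Sfrp4, Sfrp5, Frzb (also known as Sfrp3) and Wif1. Every non-control probe carrying one of these names was used, which gave 12 of the 41174 probes on the array, with 2 probes each for Dkk1 and Sfrp1 and 1 for every other gene. Of the 10 genes, 8 (9 probes) were well above background on all 4 arrays and entered the test of 17555 genes, while Dkk1 and Dkk4 did not.

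The data are from polyA RNA of full-thickness dorsal skin of males at 42 days of age, when the hair follicles were described as telogen (resting). The knockout group (cKO) lacked Fgf18, a secreted fibroblast growth factor, in the keratin 5-positive epithelium, which covers the basal epidermis and the outer layers of the hair follicle, and the control group (WT) was C57BL/6 mice. Each group was 1 RNA pool from 3 mice, hybridised to 2 single-colour arrays. The cKO arrays carried high levels of hair matrix and shaft markers, against their telogen label, and the values follow after the antagonists. All errors, intervals and p-values below therefore measure the spread between arrays of the same pool, and the test compares 2 pools, with no measure of how mice of a group differ.

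Canonical Wnt signalling starts when a Wnt ligand binds a Frizzled receptor together with Lrp5 or Lrp6, and ends with beta-catenin acting through Tcf and Lef factors. The Dickkopf proteins (Dkk) Dkk1, Dkk2 and Dkk4 bind Lrp5 and Lrp6, with Kremen proteins as further receptors, while Dkk3 is less settled. Secreted Frizzled-related proteins (Sfrp, Frzb) carry a Frizzled-like cysteine-rich domain and Wif1 carries a WIF domain, with which they bind the Wnt ligands themselves. In skin, Wnt signalling is needed to form hair follicles in the embryo and drives the start of anagen, the growth phase, and excess Dkk1 blocks both.

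The sequences below belong to the 4 genes that passed the call, Wif1, Dkk2, Sfrp2 and Sfrp5, and to Sfrp1, whose 2 probes test the same gene at separate places. They are the opening 30 bases of each 60-base probe, 5′ to 3′, as printed on the array, in lower case because no base is singled out.
Wif1: ggctgatatctactcttccttttaggtttt
Dkk2: tcagagtgatgatgtcatcagaagtttata
Sfrp2: tcggcatctaagtcttcaaacatttcgttg
Sfrp5: aagaataaggagatgaagtttgcggtcaaa
Sfrp1 (A_51_P352296): cggaatcagtatagcgtggaaggagacagt
Sfrp1 (A_52_P564706): gtgcattagtaattagaaatagtctaacct
None of the 12 antagonist probes shared a run of 20 bases with any other probe on the array (0 of 12). Cross-hybridisation at lower identity was not analysed here.

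RefSeq promoters (GRCm38.p6) were at hand for 6 of the 10 genes, and those of the 4 called genes are printed because these genes moved in both directions. Each is the 250 bases before the annotated start, read 5′ to 3′ on the gene's own strand, and capitals mark the Tcf/Lef core letters CTTTG or their complement CAAAG. This build differs from the mm9 build of the probe positions given further on.
Wif1, chr10:121033754-121034003, plus strand: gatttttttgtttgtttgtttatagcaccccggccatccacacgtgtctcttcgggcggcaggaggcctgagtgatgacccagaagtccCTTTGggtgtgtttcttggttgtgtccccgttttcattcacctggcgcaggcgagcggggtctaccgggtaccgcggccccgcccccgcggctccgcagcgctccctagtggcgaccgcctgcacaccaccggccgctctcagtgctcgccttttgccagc
Dkk2, chr3:132085042-132085291, plus strand: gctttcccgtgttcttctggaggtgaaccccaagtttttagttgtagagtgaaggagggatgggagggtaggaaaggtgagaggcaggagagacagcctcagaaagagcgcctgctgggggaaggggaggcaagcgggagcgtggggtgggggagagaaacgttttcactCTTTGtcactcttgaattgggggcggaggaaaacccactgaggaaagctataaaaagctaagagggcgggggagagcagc
Sfrp2, chr3:83766071-83766320, plus strand: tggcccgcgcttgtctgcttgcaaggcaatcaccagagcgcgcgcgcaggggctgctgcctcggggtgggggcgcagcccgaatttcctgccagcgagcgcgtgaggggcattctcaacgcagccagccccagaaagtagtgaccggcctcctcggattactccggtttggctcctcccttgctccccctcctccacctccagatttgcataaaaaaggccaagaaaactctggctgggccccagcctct
Sfrp5, chr19:42202253-42202502, minus strand: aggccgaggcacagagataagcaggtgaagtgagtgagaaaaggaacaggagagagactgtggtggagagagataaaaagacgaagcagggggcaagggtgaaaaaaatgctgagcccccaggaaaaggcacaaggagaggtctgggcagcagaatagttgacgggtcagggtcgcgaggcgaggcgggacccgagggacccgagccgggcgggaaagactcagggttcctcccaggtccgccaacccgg
The core stood once in the Wif1 window and once in the Dkk2 window, and was not found in the Sfrp2 and Sfrp5 windows. Among all 32851 promoters of the table, 48.6% held it in the same 250 bases on either strand, so its presence is common. A longer match (CTTTG followed by 2 bases that are each A or T, on either strand, which contains the core) was found in 14.8% of all promoters and, among the antagonists, in the Dkk1 window alone. A match is a description of letters and not of binding.

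Wif1 RNA was higher in cKO skin, Dkk2, Sfrp2 and Sfrp5 RNA was lower, and the other 4 tested antagonists did not reach the call. A gene was called where limma gave an adjusted p under 0.05 (Benjamini-Hochberg over all genes) and the change was at least 1.5-fold. By this rule 1 of the 8 antagonists rose, against 5.67% of all genes, and 3 of 8 fell, against 4.82% of all genes. By probe, 1 of 9 rose against 4.92% of all 26070 probes tested, and 3 of 9 fell against 4.8%. Without a fold minimum, 7 of the 8 genes had an adjusted p under 0.05, against 55.8% of all genes. The arrays of cKO and WT did not overlap for 8 of 8, against 81.8% of all genes. Each of these last criteria was also met by most of the genes tested, and duplicate arrays of 1 pool differed by a median of 0.041 (cKO) and 0.043 (WT) on the log2 scale. The median log2 change of the 8 antagonists was -0.47, beside -0.05 for all genes, and 6 of the 8 had the lower mean in cKO.

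**Figure D1:**
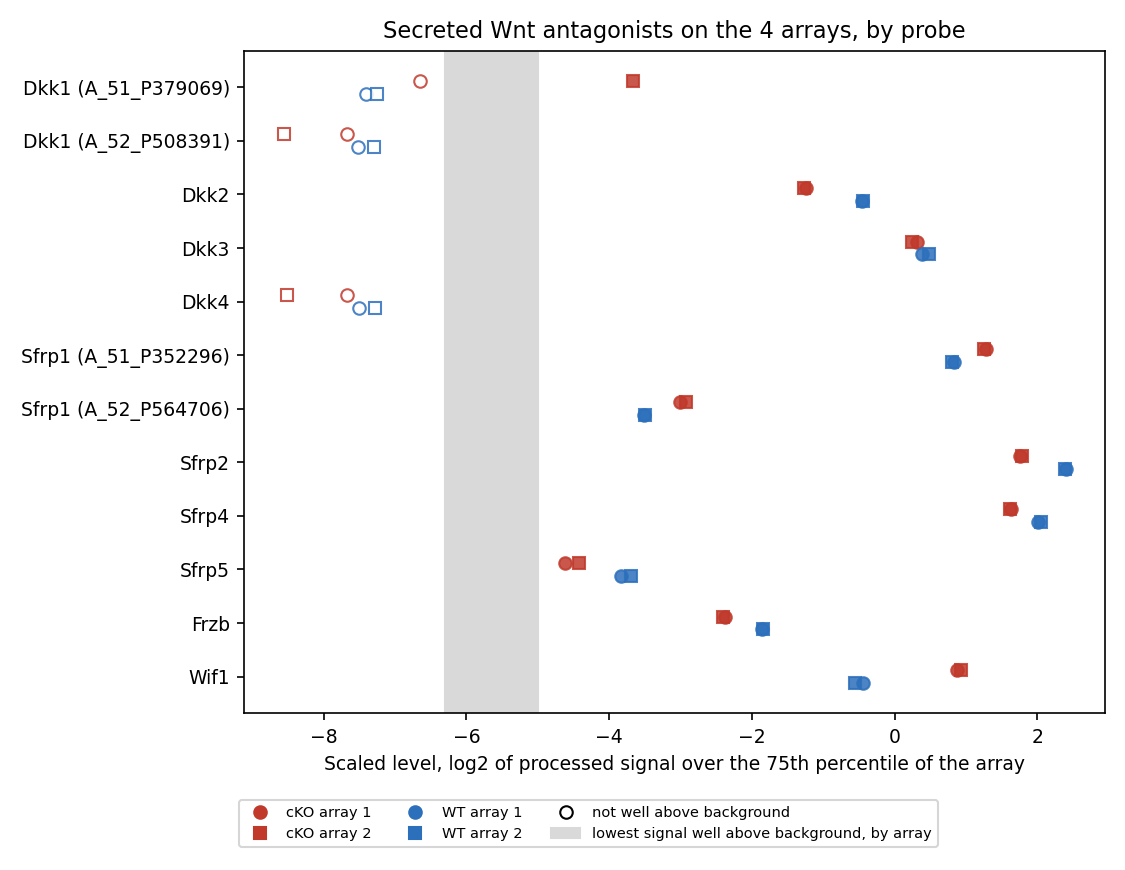
Level of each antagonist probe on each array, as log2 of the processed signal over the 75th percentile of that array. Circles are array 1 and squares array 2 of the cKO pool (red) and the WT pool (blue), open symbols are spots not well above background, and the grey band spans the lowest signal well above background on the 4 arrays. Wif1 and both Sfrp1 probes lie higher on the cKO arrays, Dkk2, Sfrp2, Sfrp4, Sfrp5 and Frzb lie lower, and the Dkk1 and Dkk4 spots lie left of the band except 1 Dkk1 spot. Positions of different probes are not comparable with each other.

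Wif1 (Wnt inhibitory factor 1) showed the largest change of the group. Its probe lies at chr10:120537079-120537138 (mm9, plus strand). The cKO arrays gave processed signals of 2583 and 2773 and the WT arrays of 939.7 and 893. Scaled to the 75th percentile of its array, the log2 level was 0.88 and 0.93 in cKO and -0.44 and -0.56 in WT. Both cKO arrays thus lay above both WT arrays, and the gap of 1.32 between the nearest arrays of the groups far exceeded the 0.12 between the WT duplicates, the wider of both pairs. Wif1 rose 2.65-fold, a log2 change of 1.40 (SE 0.056, 95% interval 1.24 to 1.57) with a limma adjusted p of 0.00147. A rise at least as large was seen in 2.03% of all genes tested.

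Of the Dickkopf genes, Dkk2 fell, Dkk3 was not called, and Dkk1 and Dkk4 did not pass the filter on dim probes. Dkk2, an Lrp5 and Lrp6 binder that is known from parts of the dermis, was read by a probe at chr3:131842357-131842416 (mm9, plus strand). The processed signals were 591 and 603 in cKO, against 926 and 970.1 in WT. The scaled log2 level was -1.25 and -1.27 in cKO and -0.46 and -0.44 in WT, so the duplicates nearly coincided and the groups lay apart. The log2 change was -0.81 (SE 0.025, 95% interval -0.88 to -0.74, limma adjusted p 0.00105), which is 1.75-fold lower. A fall at least as large was seen in 2.34% of all genes.

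Dkk3 is a divergent member of the family whose action on Wnt signalling is less settled. Its probe, at chr7:119260828-119260887 (mm9, minus strand), gave processed signals of 1745 and 1723 in cKO and 1659 and 1835 in WT, which interleave before scaling. After scaling, the log2 level was 0.32 and 0.25 in cKO and 0.38 and 0.48 in WT. The gap of 0.068 between the groups was smaller than the 0.097 between duplicates. The log2 change was -0.15 (SE 0.051, limma adjusted p 0.0796), and Dkk3 was not called.

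Dkk1, the classical Dickkopf inhibitor, has probes at chr19:30621424-30621483 and chr19:30620529-30620588 (mm9, minus strand), 895 bases apart. The first, A_51_P379069, gave processed signals of 13.9 and 115 in cKO and 7.504 and 8.62 in WT. It was well above background on cKO array 2 alone, where it was also much brighter than on the duplicate array of the same RNA. The second, A_52_P508391, gave 6.87 and 3.84 in cKO and 6.92 and 8.37 in WT, and was not well above background on any array, cKO array 2 included. The lowest signals well above background on these arrays were 33.5 and 18.5 (cKO) and 33.4 and 41.1 (WT), so no fold change of Dkk1 is given. Without the filter on dim probes the limma adjusted p was 0.274 for the first probe and 0.255 for the second.

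Dkk4, known from the hair placodes of the embryo, was not well above background on any array. Its probe, at chr8:23737464-23737523 (mm9, plus strand), gave processed signals of 6.87 and 3.96 in cKO and 6.98 and 8.49 in WT. No difference was detectable at this signal, and the limma adjusted p without the filter on dim probes was 0.253.

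Of the Frizzled-related genes, Sfrp2 and Sfrp5 fell, and Sfrp1, Sfrp4 and Frzb changed by less than the call's 1.5-fold while their groups did not overlap. Sfrp2, which is known from dermal fibroblasts, has its probe at chr3:83577864-83577923 (mm9, plus strand). Its processed signal was 4760.0 and 5028 in cKO and 6698 and 6920.3 in WT. The scaled log2 level was 1.76 and 1.79 in cKO and 2.40 and 2.40 in WT, the cKO arrays being lower by far more than the duplicates differed. The log2 change was -0.62 (SE 0.024, 95% interval -0.69 to -0.55, limma adjusted p 0.00147), or 1.54-fold lower, just past the fold minimum. The call was lost with quantile normalization, at a log2 change of -0.56, and with normexp background correction plus quantile normalization, at -0.54.

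Sfrp5, a close relative of Sfrp1, was read by a dim probe at chr19:42273211-42273270 (mm9, minus strand). Its processed signal was 56.8 and 68.1 in cKO and 89.4 and 101.2 in WT. The scaled log2 level was -4.63 and -4.42 in cKO and -3.83 and -3.70 in WT, with wider duplicates than the brighter probes but no overlap. The log2 change was -0.76 (SE 0.097, 95% interval -1.05 to -0.47, limma adjusted p 0.0094), or 1.69-fold lower. With normexp background correction plus quantile normalization, the log2 change was -0.46 and Sfrp5 was not called.

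Sfrp1, which binds Wnt ligands and is a known inhibitor of canonical signalling, was the only Frizzled-related gene with a higher mean in cKO. Its brighter probe, A_51_P352296 at chr8:24558112-24558171 (mm9, plus strand), gave processed signals of 3409 and 3464 in cKO and 2258 and 2308 in WT. The scaled log2 levels were 1.28 and 1.25 in cKO and 0.83 and 0.81 in WT, and the log2 difference of 0.45 (SE 0.025, limma adjusted p 0.00229) was 1.36-fold and not called. The dimmer probe, A_52_P564706 at chr8:24558800-24558859, 688 bases away, gave 175 and 192 in cKO and 111 and 117 in WT. Its log2 difference was 0.55 (SE 0.041, limma adjusted p over probes 0.00463). Both probes were higher on both cKO arrays, and neither was called. The dimmer probe passed the call once cKO replicate 1 was left out, at a log2 difference of 0.59 and an adjusted p of 0.036. With normexp background correction plus quantile normalization its difference was 0.38.

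Sfrp4 lies at chr13:19724488-19724547 (mm9, plus strand) by its probe. The processed signal was 4366 and 4446 in cKO and 5119 and 5462 in WT. The scaled log2 levels were 1.64 and 1.61 against 2.01 and 2.05, without overlap. The log2 difference was -0.41 (SE 0.029, limma adjusted p 0.00326), which is 1.32-fold and not called, and 12.0% of all genes were as far below WT.

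Frzb, first known from developing cartilage, was read at chr2:80252582-80252641 (mm9, minus strand). The processed signal was 269 and 275 in cKO and 349.9 and 367 in WT. The scaled log2 levels were -2.38 and -2.40 against -1.86 and -1.84, again without overlap. The log2 difference was -0.54 (SE 0.024, limma adjusted p 0.00172), which is 1.45-fold and just short of the fold minimum.

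**Figure D2:**
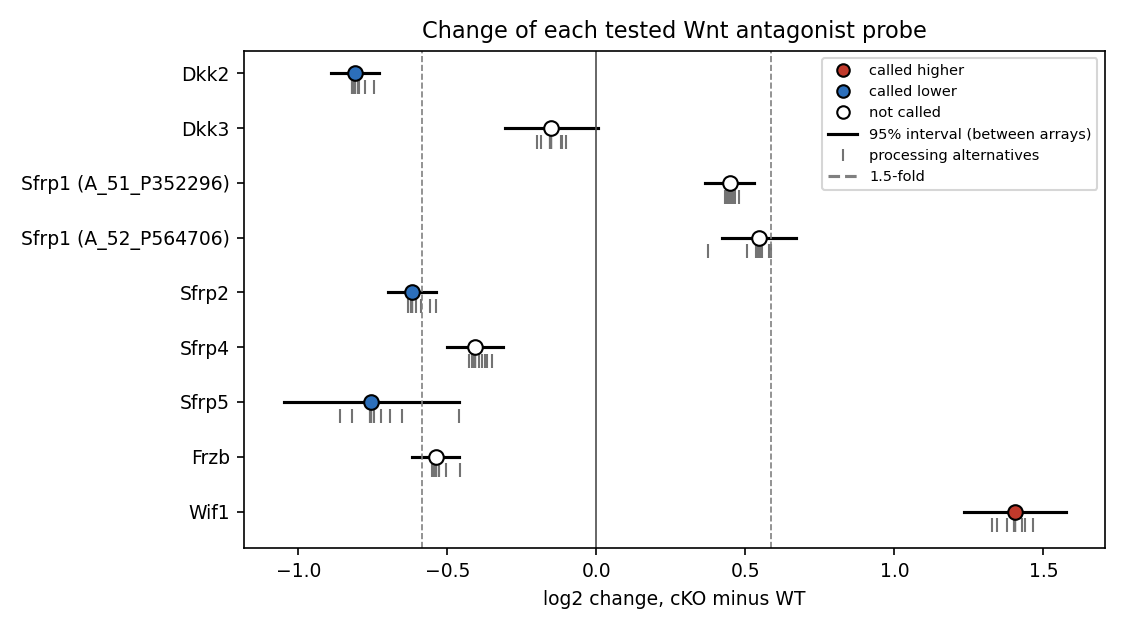
Log2 change, cKO minus WT, of each antagonist probe that was tested, with its 95% interval from limma (technical spread between arrays of 1 pool per group). Dashed lines mark 1.5-fold. The intervals are from the fit over probes and differ slightly from those over genes in the text. Wif1 stands at 1.40 with an interval of 1.23 to 1.57 and Dkk2 at -0.81. The intervals of Sfrp2, Sfrp5 and Frzb include the dashed line on the lower side. That of the dimmer Sfrp1 probe includes the dashed line on the upper side.

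The antagonists were then set beside 80 other genes of the pathway, listed by role, of which 70 were measured. Of these 70, 12 were called higher and 0 lower by limma, beside 5.67% and 4.82% of all genes. The 12 include Wnt5a and Wnt7a, which passed the filter on dim probes through the cKO arrays alone. With only probes well above background on all 4 arrays, 10 pathway genes were called higher. Without a fold minimum, 35 of the 70 were higher and 16 lower at a limma adjusted p under 0.05. Of all genes, 55.8% met that in either direction. The median log2 change of the 70 was 0.19, or 0.15 with probes dim in one group set at their bound. The antagonists had the lowest median of the lists compared (-0.47), and whether the lists differ was not tested.

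Of 15 other inhibitors measured, Nkd2, an intracellular antagonist that acts on Dishevelled, rose by 0.59 on the log2 scale (limma adjusted p 0.00628), and 14 were not called. Of the 4 receptors and co-receptors through which Dickkopf proteins act, 0 were called by limma in either direction. At a limma adjusted p under 0.05 alone, 1 was higher and 1 lower. Within that set the co-receptor Lrp5 had a log2 difference of 0.37 and Kremen2 of -0.20. Of 14 Wnt ligands measured, which the Sfrp proteins, Frzb and Wif1 can bind, 5 were called higher and 0 lower. With no fold minimum, 7 were higher and 6 lower at a limma adjusted p under 0.05. Wnt10b rose 2.03-fold and Wnt11 rose 1.64-fold. Wnt5a was at least 1.09-fold higher (limma adjusted p 0.0499) and Wnt7a at least 1.004-fold higher, both probes being not well above background in WT. The call of Wnt5a was lost under several alternatives, the replicate number as a block among them. With the mean over probes, Fzd5 and Tcf7 lost theirs. Nkd2 and the fifth ligand Wnt3a, named here after its values were seen, each rose 1.501-fold, right at the fold minimum. Neither was called with scaling on the median or with the values the authors deposited, nor Wnt3a with quantile normalization. With normexp background correction plus quantile normalization, Nkd2, Wnt5a, Wnt7a, Fzd5, Fzd6 and Wnt3a were not called.

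Of 12 Wnt receptors measured, Fzd5 (log2 change 0.73) and Fzd6 (0.60) were called higher. The probes of Fzd5 disagreed, with log2 changes of 0.23 and 0.73. Of 5 R-spondin and Lgr genes measured, which amplify Wnt signals at the receptor, 0 were called by limma. With no fold minimum, 3 were higher and 1 lower at a limma adjusted p under 0.05. Rspo1 had a log2 difference of -0.21 and Lgr5 of 0.25. Among 14 transducers, Lef1 rose 4.72-fold and Tcf7 rose by 0.83 on the log2 scale, its probes ranging from 0.30 to 0.83. Among 13 target genes, 4 were called higher, namely Msx2 (6.25-fold), Lef1, Bambi (2.29-fold) and Tcf7. Msx2, Lef1 and Tcf7 are also genes of the growing hair follicle, and Msx2 stands in the hair matrix list below.

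**Figure D3:**
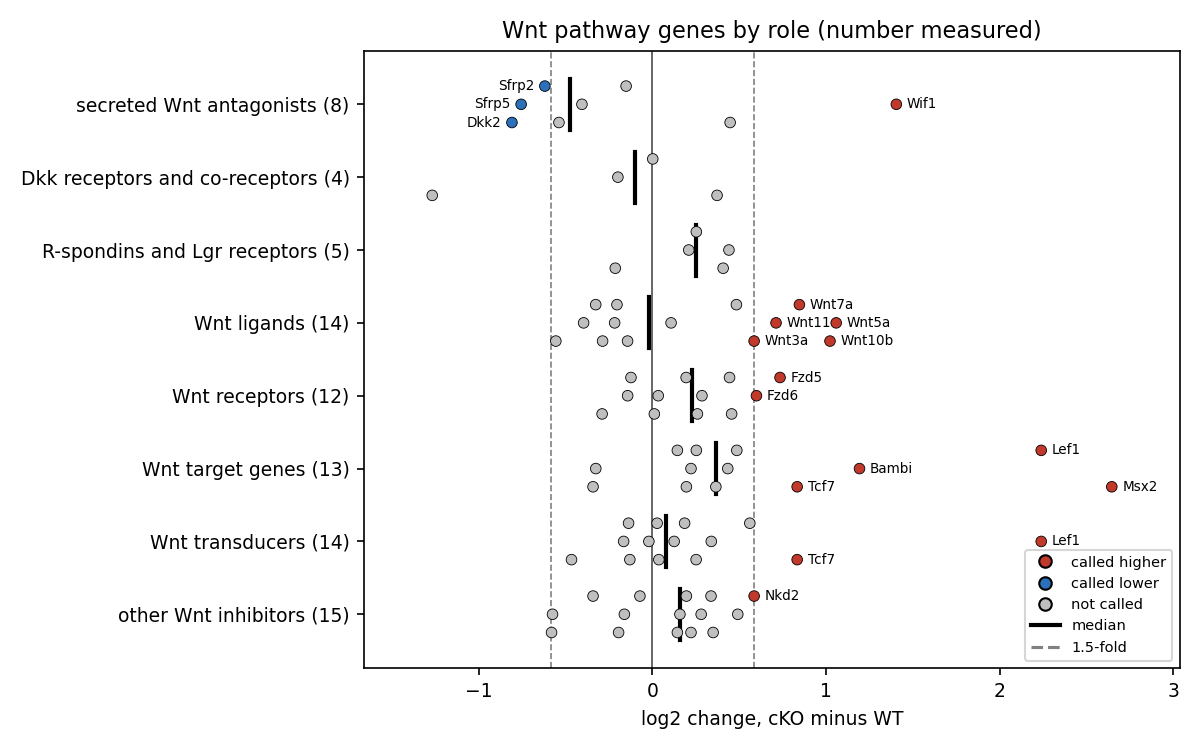
Log2 change, cKO minus WT, of each measured gene of the pathway by role, 1 point per gene and the number measured in parentheses. Red points were called higher and blue points lower, the black bar is the median of the list, and dashed lines mark 1.5-fold. The secreted antagonists hold the 3 blue points of the plot, Dkk2, Sfrp2 and Sfrp5. Lef1 and Tcf7 appear in the transducer and the target lists, and probes dim in WT (Wnt5a, Wnt7a) are drawn at their fitted value, not their bound.

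Markers of the cell types in full-thickness skin were measured beside these results, and their part in the changes of the antagonists was not tested. In whole skin, fewer cells of a type and less RNA per cell cannot be told apart. On the WT arrays 4 of 14 hair matrix, shaft and inner root sheath markers (Krt25, Krt85, Krt86 and Shh) were not well above background. On the cKO arrays 14 of 14 were higher, with a median log2 change of 6.76, and their summed signal in units of the 75th percentile was 285 to 288 against 2.44 to 2.46 in WT. The level of these markers in cKO goes against its telogen label. Wif1 was higher on the arrays with these markers of growing follicles, and Dkk2, Sfrp2 and Sfrp5 were lower on them.

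Among 10 dermal papilla markers measured, Nog (log2 change 1.78) and Hhip (at least 2.19-fold) were called higher and Crabp1 lower (-1.32). The median was 0.12, with 4 higher and 3 lower at a limma adjusted p under 0.05. The summed signal was 9.47 to 9.65 in cKO against 11.8 to 11.9 in WT. That sum rests mostly on the brightest marker, Enpp2, whose log2 change was -0.35. Of 9 dermal fibroblast markers, Dpt rose (0.77), Lum fell (-0.63) and 7 were not called, with a median of -0.16 and sums of 780.4 to 782 against 841 to 921. These values are from the brightest probe of each gene, and some dimmer probes were further below WT. The lowest probe stood at -0.82 for Col1a2, -0.81 for Col3a1 and -0.66 for Pdgfra, against -0.08, -0.13 and -0.21 for the brightest. Of 10 bulge and secondary germ markers, 3 were called higher and 0 lower, with a median of 0.13. Of 6 basal epidermis markers 0 were called by limma, with 2 higher and 0 lower at an adjusted p under 0.05. Their sums were 325 to 331 against 322 to 340.2. Of 6 differentiated epidermis markers 1 was called higher and 0 lower, with a median of -0.20. At a limma adjusted p under 0.05 alone, 2 were higher and 4 lower, and the sums were 355 to 360 against 432 to 459.

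Markers of other tissues of the skin were in part called lower, and more of them were lower with no fold minimum. Of 8 skeletal muscle markers 4 were called lower, with a median of -0.60 and sums of 815 to 816 against 1146 to 1199. At a limma adjusted p under 0.05 alone, 8 of 8 were lower. Of 8 adipocyte markers 4 were called lower (median -0.52, Lep -0.97). With no fold minimum, 6 were lower and 1 higher at a limma adjusted p under 0.05. Their summed signal was 241 to 242 against 244. That sum rests mostly on the brightest marker, Fabp4, whose log2 change was 0.19, and says little about the dimmer ones. Of 5 smooth muscle markers, 7 vessel markers and 5 Schwann cell markers, 2 were called lower in each list, with medians of -0.27, -0.31 and -0.52. With no fold minimum, 4, 7 and 4 of them were lower and 0 higher at a limma adjusted p under 0.05. Of all genes, 55.8% met that in either direction. Of 5 melanocyte markers measured, 5 rose, with a median of 0.93. Of 6 immune markers 0 were called by limma, with 1 higher and 3 lower at an adjusted p under 0.05.

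**Figure D4:**
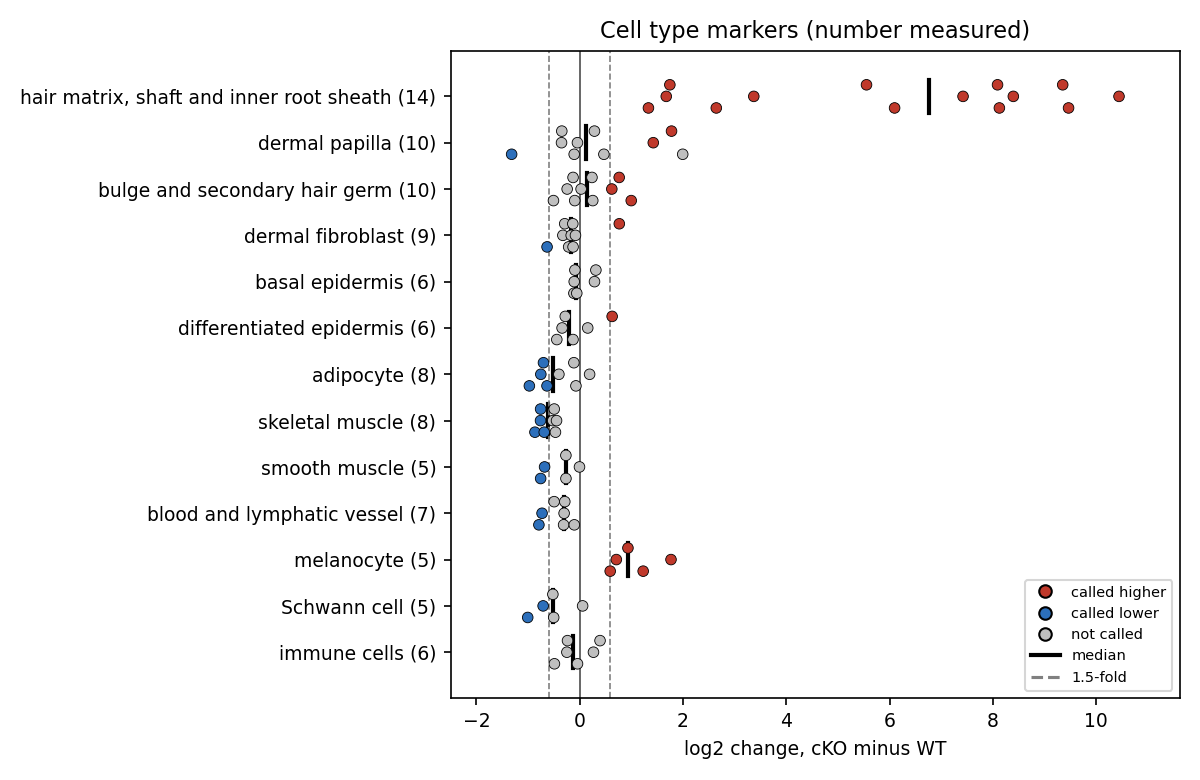
Log2 change, cKO minus WT, of each measured marker by cell type, 1 point per gene, with the black bar at the median of the list. The hair matrix list stands apart at a median of 6.76, the melanocyte list lies at 0.93, and the muscle, adipocyte and Schwann cell lists lie at -0.60, -0.52 and -0.52. Probes dim in one group are drawn at their fitted value.

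The arrays themselves were alike in overall signal, with 75th percentiles from 1271 to 1453 in processed signal. On cKO array 2, 69.1% of spots were well above background, against 62.1 to 64.6% on the other arrays. Its lowest signal well above background was 18.5, against 33.4 to 41.1. Duplicates correlated at r = 0.997 (cKO) and 0.996 (WT) across genes, which are not independent replicates, and the highest value between pools was 0.964. The targeted gene Fgf18 gave scaled log2 levels of 1.86 and 1.86 in cKO and 2.18 and 2.21 in WT, a difference of -0.33 (limma adjusted p 0.00353) that was not called. The labels do not state which part of the gene was deleted, so this probe does not check them.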

How the data were processed

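The deposited scanner files hold 4 Agilent single-colour arrays (Cy3), read with Agilent Feature Extraction 10.7.3.1 on a design with mm9 positions, per the file headers. The processed signal is a background-corrected intensity, per the file headers. The authors also deposited a table of values, which is that signal divided by 1 number per array, a ratio close to signal over the 75th percentile, with medians of 0.0983 to 0.101 and no centring.

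Each processed signal was put on a log2 scale minus the log2 of its array's 75th percentile over non-control spots. Probes were kept if cKO, WT or both had all their arrays well above background (26070 probes, 17555 genes), the brightest kept probe standing for a gene. Differences were tested with limma 3.58.1 (lmFit and eBayes, R 4.3.3) over all features, two-sided, without covariates, and adjusted by Benjamini-Hochberg. With 2 arrays a group, an exact permutation test cannot give a p below 0.333. Where a probe was dim on both arrays of a group, "at least N-fold" sets the bright group's mean against the dim group's mean of the higher of its own signal and the lowest signal well above background.

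All 10 antagonists are described with every probe. Of each other pathway list, up to 4 called genes per direction with the largest change are named, or, where none was called, the 2 brightest. Of most marker lists up to 2 called genes are named. All called dermal papilla markers are given, and the hair matrix markers named are those dim in WT. Enpp2, Col1a2, Col3a1, Pdgfra and Fabp4 were named after their values were seen. The genes and lists were chosen with earlier results of these data known. Names were updated through RefSeq (GRCm38.p6) accessions for 26690 probes, current symbols for 5189 and older symbols for 952, and 8343 kept the file's name. Sequences are from the scanner files and RefSeq promoters. The exon each probe lies in was not analysed here. Settings tried include 5 other scalings or normalizations, 2 other filters on dim probes, averaging over probes per gene, trended moderation, keeping outlier spots, blocking on the replicate number and dropping each array in turn. The script was tested on simulated data.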

Additional observations from a re-analysis of the deposited data

How the results depend on the processing

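Each of the 8 tested antagonists kept the direction of its change under every alternative tried. The log2 change of Wif1 ranged from 1.33 to 1.47 and that of Dkk2 from -0.82 to -0.75, and both kept their call throughout. With normexp background correction plus quantile normalization, 1 antagonist gene and 1 antagonist probe were called lower in place of 3 each, and 6 other pathway genes higher in place of 12. Over all genes that setting called 718 higher and 481 lower, against 996 and 847. Leaving out each array in turn called 1 antagonist gene higher and 3 lower every time, 1 to 2 antagonist probes higher, and 0 to 3 other pathway genes lower. Those lower genes were Apcdd1 (-0.71), Dkkl1 (-0.61) and Shisa3 (-0.66) without cKO replicate 1, Dkkl1 (-0.59) and Shisa3 (-0.61) without WT replicate 1, and Kremen1 (-2.33) and Wnt2 (-0.60) without WT replicate 2. The cause was not tested. Among the pathway genes called higher, Nkd2 and Wnt5a lost the call without cKO replicate 1, Fzd6, Wnt3a and Wnt5a without cKO replicate 2, Nkd2 without WT replicate 1, and Fzd6 and Wnt3a without WT replicate 2, while Fzd8 was gained without cKO replicate 2 and Lgr6 without WT replicate 1. In such fits a group of 1 array is assumed to vary like the other group. Same-numbered arrays did not deviate together (r = -0.020 across probes), which cannot show whether they were handled as pairs. A replicate block left 1 antagonist gene called higher and 3 lower and 11 other pathway genes higher. Without the filter on dim probes the median log2 change of all genes was -0.16 in place of -0.05. Sfrp5 lies near the background, which limits its precision, and no antagonist spot was saturated.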

Other observations

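The 4 pathway genes given here were chosen after their values were seen. Dkkl1, a secreted protein related in sequence to Dkk3, had scaled log2 levels of 2.557 and 2.505 in cKO and 3.098 and 3.126 in WT, without overlap and just under 1.5-fold. Shisa3, an inhibitor that holds Frizzled inside the cell, had -3.58 and -3.74 in cKO and -3.12 and -3.05 in WT. The Dickkopf receptor Kremen1 had -3.25 and -3.32 in cKO but -0.96 and -3.08 in WT, so its WT duplicates, which are arrays of 1 RNA pool, differed by more than the groups did (limma log2 difference -1.27, SE 0.81). Apcdd1, a membrane inhibitor of Wnt signalling, had 4.24 and 3.51 in cKO and 4.23 and 4.21 in WT, where cKO array 2 alone was lower.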
